A study of Mus musculus with 3 samples.

Results

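The genes described here are the olfactory receptors of mouse chromosome 7. They were chosen by name and position only, as every non-control probe whose gene name in the files starts with Olfr and a digit and whose coordinate lies on chromosome 7. The array carries 242 such probes for 235 genes, out of 37072 genes in all, and each gene was represented by its probe with the highest mean signal over the 3 arrays. The family was picked as a yardstick for noise, because blood stem cells are not where these receptors are known to act. By the scanner's own flag, 154 of the 235 genes (65.5%) were well above background on at least 1 array and 81 on none, so not every member was undetected. Over all genes the share was 83.0%.

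The arrays measured RNA of LT-HSCs, the long-term hematopoietic stem cells that renew themselves in the bone marrow and refill the blood, taken from C57BL/6J mice and sorted as CD150+CD48-Flt3-CD34- LSK cells. That gate is the one of the sample labels. The series text names CD34 and Flt3 within LSK only, and the study's methods add the absence of CD41. LSK stands for cells without lineage markers that carry Sca-1 and c-Kit. The WT array came from control mice, which per the study's methods received tamoxifen but carried no Cre transgene. The AtmsKO array came from CAG-CreERT2::Atm flox/flox mice after tamoxifen, and the Atmp38dKO array from CAG-CreERT2 mice with floxed alleles of both Atm and p38α, also after tamoxifen. Atm encodes a kinase that signals DNA breaks, and p38α, encoded by Mapk14, is a stress kinase. The CAG promoter drives CreERT2 in most tissues, so the deletion is not limited to blood cells. The sample labels give an age of 11 weeks for every group, while the series text gives tamoxifen at about 5 weeks and analysis 4 weeks later. How many mice stood behind an array is not stated. With 1 array a group there are no replicates, no test was possible and no p-value is given. Every difference below is between arrays, and mice, RNA and array cannot be told apart from genotype.

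Olfactory receptors are G protein-coupled receptors of the nose. They form the largest gene family of the mouse genome, and most have a coding region within a single exon. Each mature olfactory neuron expresses 1 receptor from 1 allele, while the other receptor genes are kept in compact, repressed chromatin. Chromosome 7 carries several clusters of them, among them the class I receptors that surround the beta-globin genes.

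All 3 arrays lay on the same slide, with 62976 spots each. The 75th percentile of the signal, to which each array was scaled, was 102 units on the WT, 96.2 on the AtmsKO and 118 on the Atmp38dKO array. All 10 LT-HSC markers checked (such as Kit and Hlf) were well above background on each array. Marker levels still differed between arrays. On the array labelled Atmp38dKO, log2 differences from WT ran from -1.72 for Fgd5 and -1.64 for Hoxb5 to 0.08 for Kit and 0.26 for Tek. The median of these 10 markers was -0.37. Messages of CD48, CD34, Flt3 and CD41, which the gate as given in the methods excludes at the surface, were well above background on each array, with Cd34 between 1666 and 2185 units. So were all 8 myeloid and all 6 megakaryocyte markers. Of the 8 lymphoid markers, 6 or 7 were well above background per array, and of the 8 erythroid markers, 7 or 8. The myeloid list summed to between 37327 and 39908 units, of which Itgam alone gave between 32383 and 33895. Itgam encodes a part of Mac-1, which the study's methods count among the lineage markers, so the gate excludes it at the surface too. Sums here add signals of different probes, which give no order of transcript levels. The megakaryocyte list summed to 1462 (WT), 2874 (AtmsKO) and 2154 (Atmp38dKO) units, of which Pf4 alone gave 1020, 2366 and 1536. Log2 differences of AtmsKO minus WT in this list ran from -0.41 for Itga2b to 1.29 for Pf4. Gp9 stood at 0.006 and Vwf at 1.01. The erythroid list summed to 708 (WT), 613 (AtmsKO) and 907 (Atmp38dKO) units. Its genes went both ways, with log2 differences of AtmsKO minus WT from -1.05 for Car1 to 1.72 for Alas2. Alas2 read 6.504, 20.4 and 26.3 units on the WT, AtmsKO and Atmp38dKO arrays. The stromal and endothelial list had 5 of 6 genes detected per array and summed to between 174 and 212 units, with Cdh5 undetected. The part of other cells in the receptor signals was not tested. A probe for Atm read 87.0, 23.9 and 86.5 units on the WT, AtmsKO and Atmp38dKO arrays, and a second one 88.8, 16.3 and 49.0 units. A Mapk14 probe read 469, 558 and 616 units and the other 295, 260.4 and 345 units. On the array labelled Atmp38dKO, neither Mapk14 probe thus read below WT, and the first Atm probe differed from WT by only -0.22 on the log2 scale after scaling, the second by -1.07. Where the floxed exons lie relative to these probes was not established here. That array is therefore called by its label wherever a direction is given.

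Each receptor probe is 60 bases long and was printed once per array. The first probes shown are 3 of the 4 brightest, followed by the 3 with the lowest mean signal among genes that were not well above background on any array. Both sets were limited to genes whose RefSeq model is of coding length. Capitals mark G and C, since the share of these bases differed between bright and dim probes (below).
Olfr571: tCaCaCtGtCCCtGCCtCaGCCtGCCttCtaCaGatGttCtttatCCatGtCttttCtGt
Olfr1347: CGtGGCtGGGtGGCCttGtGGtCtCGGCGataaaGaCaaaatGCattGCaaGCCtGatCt
Olfr553: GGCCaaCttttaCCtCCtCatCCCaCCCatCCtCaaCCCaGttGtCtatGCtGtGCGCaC
Olfr308: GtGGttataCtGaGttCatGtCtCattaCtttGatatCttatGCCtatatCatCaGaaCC
Olfr683: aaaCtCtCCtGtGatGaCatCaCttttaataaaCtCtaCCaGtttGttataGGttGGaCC
Olfr490: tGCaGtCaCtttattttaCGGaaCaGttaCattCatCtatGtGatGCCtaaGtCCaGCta

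The second set shows how closely receptors resemble each other. Capitals mark the longest exact run that the probe shares with a probe of another gene on the array. Olfr689, which had the largest difference among members detected on both arrays of a comparison, shares 27 bases with its neighbor Olfr688. Olfr485 and Olfr494 share 43 bases, the longest run of any member.
Olfr689: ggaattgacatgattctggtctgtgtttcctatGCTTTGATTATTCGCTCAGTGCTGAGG
Olfr688: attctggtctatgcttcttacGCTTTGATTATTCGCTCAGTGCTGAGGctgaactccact
Olfr485: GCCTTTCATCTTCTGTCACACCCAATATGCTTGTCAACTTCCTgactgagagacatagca
Olfr494: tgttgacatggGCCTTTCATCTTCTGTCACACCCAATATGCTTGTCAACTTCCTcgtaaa

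Between 45.1% and 60.4% of the receptors were detected per array. The flag for well above background, which Feature Extraction sets for a spot whose signal clearly exceeds its background noise, was set for 117 of the 235 genes (49.8%) on the WT array, for 106 (45.1%) on AtmsKO and for 142 (60.4%) on the array labelled Atmp38dKO. Over all genes the share was 75.5% on the WT, 71.3% on the AtmsKO and 79.7% on the Atmp38dKO array, so the arrays stood in the same order for receptors as for all genes. Negative control spots, which match no mouse transcript, were never flagged (0 of 295, 294 and 295 spots, which allows a share of up to 1.02% at 95% confidence). Their median signal was 1.20, 1.38 and 1.12 units on the WT, AtmsKO and Atmp38dKO arrays. How often probes of unexpressed mouse genes are flagged was not tested, and these controls do not measure it. The lowest signal that any probe well above background reached was 5.33 units on the WT, 6.12 on the AtmsKO and 4.97 on the Atmp38dKO array.

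The same 94 receptors were well above background on all 3 arrays, which is 40% of the family against 68.5% of all genes. Another 23 (9.79%, against 6.52% of all genes) passed on 2 arrays and 37 (15.7%, against 7.97%) on 1 array. Of these 37, the array labelled Atmp38dKO alone detected 27, or 11.49% of the family against 5.12% of all genes. AtmsKO alone detected 5 (2.13% against 0.834%) and WT alone 5 (2.13% against 2.02%). Receptors that no array detected made up 34.5% of the family against 17.0% of all genes.

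Other chemosensory receptors were detected at rates from 28.1% to 57.1%. The 869 olfactory receptors elsewhere in the genome were well above background in 46.03% (WT), 37.3% (AtmsKO) and 51.7% (Atmp38dKO). The 170 vomeronasal receptors of the Vmn1r type, which sense pheromones, reached 38.8%, 31.2% and 40%, and the 96 of the Vmn2r type 39.6%, 28.1% and 44.8%. The 35 bitter taste receptors (Tas2r) reached 51.4%, 42.9% and 57.1%. The 14 trace amine receptors (Taar), a second kind of odor receptor, reached 57.1%, 35.7% and 42.9%. In all 6 of these sets of genes the AtmsKO array gave the lowest share, as it did for all genes.

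**Figure D1:**
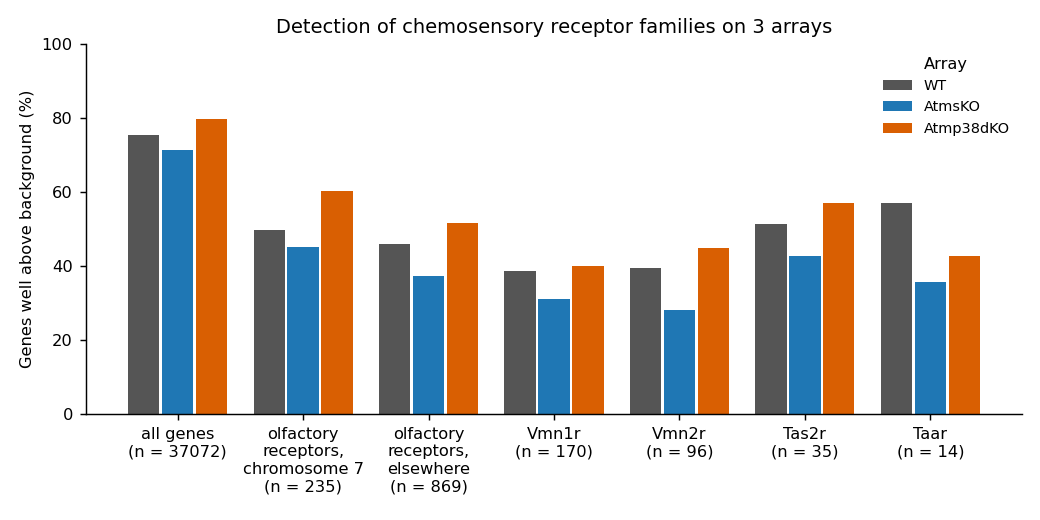
Share of genes well above background (y axis, percent) in all genes and in 6 sets of chemosensory receptor genes (x axis, with the number of genes), with a bar for each of the 3 arrays. The chromosome 7 olfactory receptors sit between 45.1% and 60.4%, below all genes at 71.3% to 79.7%.

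Signals of the family were low. Among the receptors detected on an array, the median processed signal was 13.9 units on the WT, 16.2 on the AtmsKO and 13.5 on the Atmp38dKO array. Over all members, undetected ones included, the median was 6.03 units on the WT, 6.00 on the AtmsKO and 7.44 on the Atmp38dKO array, against 26.8, 25.1 and 31.4 units for all genes. In raw terms, the median receptor spot read 32.3, 32.02 and 33.2 units before correction, beside a local background of 21, 20 and 18 units. The mean signal over the 3 arrays was under 10 units for 146 genes and at least 100 units for 4 genes. A surrogate value, the stand-in that the software gives to a spot not above its background, was carried by 37 members (WT), 49 (AtmsKO) and 26 (Atmp38dKO). Signals of different probes depend on the probe as well as the transcript, so they give no order of transcript levels.

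**Figure D2:**
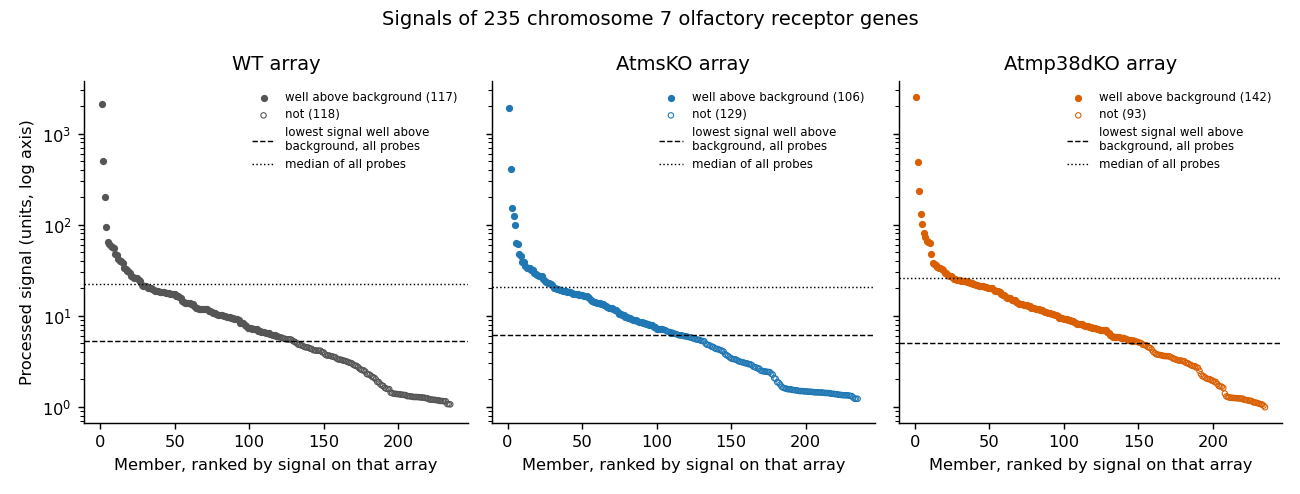
Processed signal (y axis, log scale) of the 235 members ranked on each array (x axis), with filled points for genes well above background, a dashed line at the lowest signal well above background of any probe and a dotted line at the median of all probes. Between 3 and 5 members per array exceed 100 units, led by Olfr571 at 1890.2 to 2553 units, and most lie below the median of all probes.

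A few receptors stood far above the rest and were alike on all arrays. Olfr571 (probe at chr7:110058002-110058061, mm9, minus strand by the order of the coordinates in the files) read 2106 ± 211 units on the WT, 1890.2 ± 189 on the AtmsKO and 2553 ± 255 on the Atmp38dKO array, where the error is the scanner software's own estimate for 1 spot. Its normalized log2 differences were -0.08 (AtmsKO minus WT) and 0.06 (Atmp38dKO minus WT). The nearest probes, of Olfr570 at 8.87 kb and of Olfr572 at 18.8 kb, lay on the opposite strand, with Olfr570 at 54.97, 62.5 and 72.5 units.

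Olfr544 (chr7:109632628-109632687, minus strand), a receptor for which sites outside the nose have been described, read 495 ± 49.5, 405 ± 40.6 and 489 ± 48.9 units on the WT, AtmsKO and Atmp38dKO arrays. Its probe lies 15.3 kb from that of Rrm1, which encodes a subunit of ribonucleotide reductase and read 628, 488 and 655 units, on the opposite strand. A transcript known only as AK213775, 15.5 kb away on the same strand, read 1043, 954 and 1042 units. The other 3 receptors on the list of those described outside the nose, Olfr78, Olfr558 and Olfr691, were not well above background on any array and read between 1.38 and 4.01 units.

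Olfr1347 (chr7:6441049-6441108, minus strand) read 201, 152 and 236 units and Olfr553 (chr7:109762585-109762644, minus strand) 95.2, 98.8 and 131 units on the WT, AtmsKO and Atmp38dKO arrays. For both, the Atmp38dKO array read highest, and the normalized differences from WT lay between -0.33 and 0.25 on the log2 scale. The next in signal were Olfr483, Olfr570, Olfr524 and Olfr536. Olfr524 read 60.6, 61.9 and 65.1 units, and was thus as even as Olfr553. Olfr483 read 58.2, 38.6 and 100.5 units, and Olfr536 47.8, 38.9 and 81.3 units, both lowest on the AtmsKO and highest on the Atmp38dKO array.

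In the comparison of AtmsKO against WT, few receptors differed by much. A gene was considered if it was detected, that is flagged as above, on one or both arrays. Of the 127 members considered, 7 were at least 2-fold higher and 5 at least 2-fold lower in AtmsKO. Over all 28866 genes considered, 3.94% were at least 2-fold higher and 4.09% lower (8.03% in either direction), against 5.51% and 3.94% of the members (9.45%). Only Olfr689 was at least 8-fold higher (background 0.315%), and none was at least 8-fold lower (background 0.263%). The median log2 difference of the members was 0.0011, beside 0.0080 for all genes. An undetected value below the lowest detected level of its array was raised to that level, and one above it kept its own value. A fold against a raised value is therefore written as at least so large. A fold against an undetected value that was kept is a plain ratio.

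Olfr689 (chr7:112463156-112463215, plus strand) read 6.62 ± 1.40 units on the WT, 123 ± 12.4 on the AtmsKO and 8.07 ± 1.42 on the Atmp38dKO array. It was well above background on all 3, and only the AtmsKO array was high. After scaling it was 19.7-fold higher in AtmsKO than in WT (log2 difference 4.30). The raw spot mean was 31.7, 146 and 32.7 units, the median over the pixels of the spot was 31, 130 and 32 units, and the spot was not marked as non-uniform on any array. With the normexp background correction and an offset of 50, the log2 difference was 1.57. Olfr688, with 27 bases in common between the probes, read 8.36, 6.21 and 21.3 units on the WT, AtmsKO and Atmp38dKO arrays, and so did not follow it.

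Olfr677 (chr7:112204944-112205003, plus strand) read 1.77 units on the WT, 33.5 on the AtmsKO and 2.79 on the Atmp38dKO array, and only the AtmsKO spot was well above background. It was at least 6.62-fold higher in AtmsKO than in WT. Under normexp its log2 difference was 0.68. Olfr555 read 6.56, 22.0 and 10.6 units, well above background throughout, with a log2 difference of 1.82 for AtmsKO minus WT. Olfr630 read 4.13, 20.1 and 24.3 units and was at least 3.98-fold higher in AtmsKO (log2 difference 0.40 under normexp). Olfr657, Olfr663 and Olfr666 followed, with log2 differences of 1.32, 1.05 and 1.02.

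On the lower side, Olfr547 read 37.6 units on the WT, 2.31 on the AtmsKO and 7.26 on the Atmp38dKO array, and was at least 5.83-fold lower in AtmsKO (log2 difference -0.51 under normexp). Olfr707 read 21.3, 1.53 and 8.49 units, at least 3.30-fold lower in AtmsKO, and Olfr623 was at least 2.75-fold lower. Olfr65 read 64.6 ± 6.58, 19.8 ± 2.46 and 21.3 ± 2.44 units, well above background on all 3 arrays, with a log2 difference of -1.63, or -0.59 under normexp. Olfr569 read 26.0, 9.62 and 14.8 units (-1.36), and Olfr631 and Olfr706 had log2 differences of -0.80 and -0.76. Each of these 7 genes read highest on the WT array.

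In the comparison of the array labelled Atmp38dKO against WT, 149 members were considered, of which 6 were at least 2-fold higher and 10 at least 2-fold lower. The background over 30456 genes was 4.02% higher and 4.49% lower (8.5% in either direction), against 4.03% and 6.71% of the members (10.7%). No member passed 8-fold, where 0.102% of all genes were higher and 0.332% lower. The median log2 difference was 0.06 for the members and 0.02 for all genes. Without the floor, on the deposited log2 values of the same members, the split at 2-fold was 15 higher and 11 lower.

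Olfr69 (chr7:110916412-110916471, minus strand) read 6.498, 6.66 and 32.7 units on the WT, AtmsKO and Atmp38dKO arrays, a log2 difference of 2.12 for the array labelled Atmp38dKO minus WT. Under normexp it was 0.37. Olfr5 read 6.08, 8.51 and 20.6 units (1.55), Olfr666 7.18, 13.8 and 20.1 units (1.27), and Olfr688 8.36, 6.21 and 21.3 units (1.14). Olfr630, undetected on the WT array, was at least 3.92-fold higher and Olfr520 at least 2.04-fold higher. These 6 were all of the members past 2-fold upward.

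On the lower side, Olfr547 had the largest difference among members detected on both arrays, -2.59 on the log2 scale (-0.66 under normexp), followed by Olfr65 (-1.81, or -0.74 under normexp), Olfr707 (-1.54) and Olfr670 (-1.03). Olfr623 read 17.8 units on the WT, 4.02 on the AtmsKO and 1.23 on the Atmp38dKO array, a difference from WT of at least 4.15-fold. Olfr485 read 11.8, 15.8 and 4.57 units, at least 2.77-fold lower. The remaining 4 past 2-fold were Olfr569 (-1.03), detected on both arrays, and Olfr584, Olfr710 and Olfr243, detected on the WT array alone at 10.3, 9.49 and 9.47 units. Olfr494, whose probe shares 43 bases with that of Olfr485, read 2.27, 1.34 and 1.78 units and was not well above background on any array. Both comparisons with WT use the same WT array, so a member that reads high or low there enters both.

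In the comparison of the array labelled Atmp38dKO against AtmsKO, 149 members were considered. Of these, 3 were at least 2-fold higher and 7 at least 2-fold lower, beside a background of 3.75% and 3.72% over 30017 genes (7.48% in either direction), which compares with 2.01% and 4.70% of the members (6.71%). At 8-fold, 2 members were lower and none higher, where 0.356% of all genes were lower and 0.0899% higher. The median log2 difference was -0.01 for the members and -0.0047 for all genes. Without the floor, on the deposited log2 values, the split at 2-fold was 14 higher and 11 lower, and with quantile normalization it was 3 and 11.

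The 2 members past 8-fold were Olfr689, 18.7-fold lower, and Olfr677, at least 8.24-fold lower, which were high on the AtmsKO array alone. Olfr663 read 11.3, 22.2 and 9.04 units on the WT, AtmsKO and Atmp38dKO arrays, a log2 difference of -1.59, and Olfr555 and Olfr635 followed with -1.34 and -1.33. Olfr485 was at least 3.89-fold lower. Olfr566 was 2.18-fold lower, against an undetected Atmp38dKO value that was kept. On the higher side, members detected on both arrays were led by Olfr483 at 1.09 and Olfr5 at 0.99, then Olfr536 at 0.77 and Olfr638 at 0.67. Olfr69 was 4.01-fold and Olfr688 2.81-fold higher, both against undetected AtmsKO values that were kept.

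**Figure D3:**
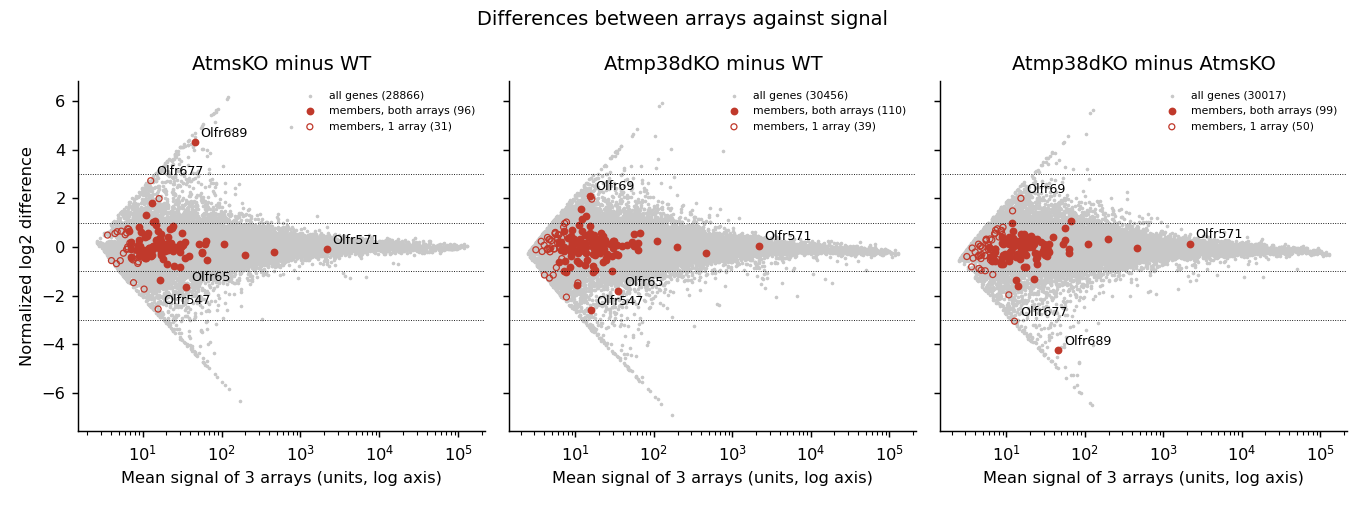
Normalized log2 difference between 2 arrays (y axis) against the mean signal of the 3 arrays (x axis, log scale), for genes detected on one or both arrays, in gray for all genes and red for members, with open circles where only 1 array detected the gene. Such a value is a bound where the undetected signal was raised to the lowest detected level. Dotted lines mark 2-fold and 8-fold, and Olfr689 lies at 4.30 and -4.23 in the comparisons that include the AtmsKO array.

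Among members well above background on both arrays, where no floor enters, the typical difference was small. The median size of the log2 difference was 0.25 for AtmsKO against WT (96 members), 0.26 for Atmp38dKO against WT (110 members) and 0.25 for Atmp38dKO against AtmsKO (99 members). All genes gave 0.23, 0.24 and 0.23. In members, 90% of the differences were smaller than 1.77-fold, 1.90-fold and 1.62-fold in the same order, and in all genes smaller than 1.71-fold, 1.75-fold and 1.71-fold. At least 2-fold apart were 7.29%, 8.18% and 5.05% of these members, beside 5.73%, 6.40% and 5.71% of all genes so measured.

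Over all genes, the share at least 2-fold apart depended on the signal, and for members the counts per range were small. Of all genes with a mean signal of 8 to 16 units, 15.8% were at least 2-fold apart between AtmsKO and WT, and of the 9926 genes in the brightest range 1.18%. The members of 8 to 16 units gave 7 of 47, or 14.9%. Between 16 and 32 units, 2 of 40 members (5.00%) were at least 2-fold apart, beside 13.8% of all genes. For the array labelled Atmp38dKO against WT, 7 of 46 members (15.2%) of 8 to 16 units and 2 of 40 (5.00%) of 16 to 32 units were so far apart, beside 16.6% and 13.3% of all genes. For Atmp38dKO against AtmsKO it was 6 of 47 (12.8%) and 1 of 40 (2.50%), beside 15.3% and 12.7%. Between 32 and 64 units, 2 of 11 (18.2%), 1 of 11 (9.09%) and 1 of 11 (9.09%) members were at least 2-fold apart in the 3 comparisons, in the same order. Over all genes of that range it was 11.3%, 10.6% and 9.86%. Under 8 units, where most members were undetected, it was 1 of 24 (4.17%), 6 of 47 (12.8%) and 1 of 46 (2.17%), beside 7.94%, 10.7% and 7.09% of all genes. From 8 units up, the share of all genes thus fell steadily with signal, while that of the members did not. Under 8 units, where raised values limit the fold, the share of all genes was lower than at 8 to 16 units. Only 5 members had a mean signal of 64 units or more.

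**Figure D4:**
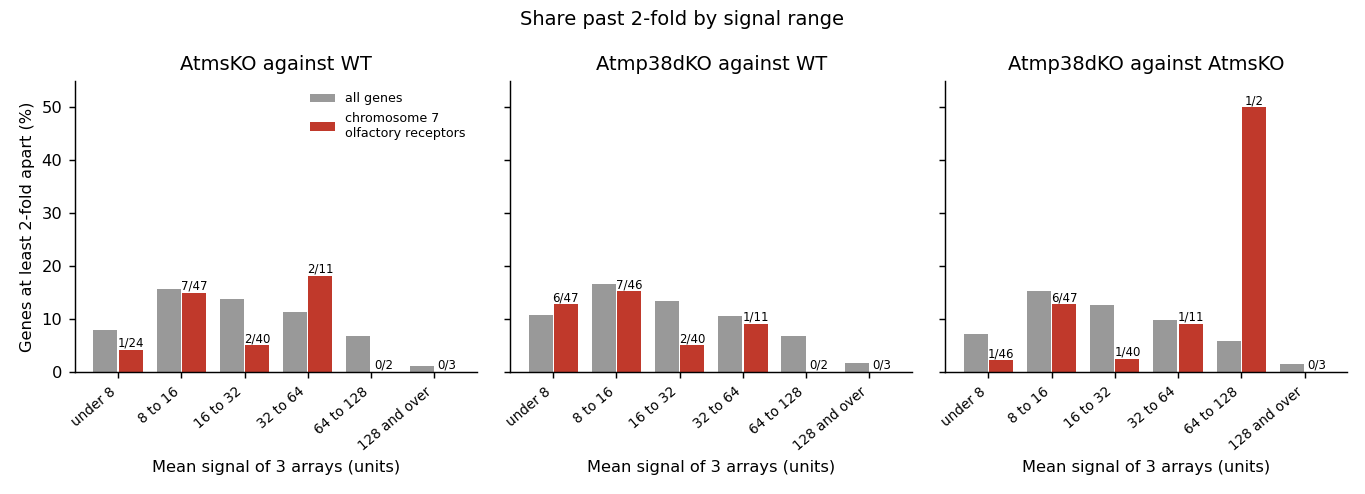
Share of genes at least 2-fold apart (y axis, percent) by mean signal over the 3 arrays (x axis, units), in gray for all genes and red for members, with the number of members past 2-fold over the number considered. In the range of 8 to 16 units members and all genes lie between 12.8% and 16.6%, and the bar at 50% rests on 2 members.

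Probes printed at least 8 times on each array show the spread that spots alone give. At 8 to 16 units, the median SD between spots of the same probe was 0.27 on the WT array (9 probes), 0.31 on the AtmsKO array (7 probes) and 0.30 on the Atmp38dKO array (4 probes), on the log2 scale. In the brightest range, with 264 to 269 probes, it was 0.05 on each array. The median size of the difference between AtmsKO and WT in members of 8 to 16 units was 0.32 (37 members well above background on both). A difference between 2 arrays and an SD between spots of 1 array are unlike measures, so these values do not compare directly. In that range, on the WT array, 3 of the 9 probes had their highest and lowest spots at least 2-fold apart. Under 8 units, where 132 of the 235 members lie, the SD was 0.64 on the WT (10 probes), 0.55 on the AtmsKO (10 probes) and 0.75 on the Atmp38dKO array (9 probes). There, 10, 8 and 8 of these probes had their highest and lowest spots at least 2-fold apart. Only 1, 1 and 2 of them were well above background, so this spread is mostly that of undetected probes. Low member values were raised to the lowest detected level before differences were taken, which these spots were not.

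The order of the receptor signals was largely kept from array to array. Across the 235 members, which share probes and slide, the log2 signals correlated between WT and AtmsKO with r = 0.85 (rho = 0.83), between WT and Atmp38dKO with r = 0.87 (rho = 0.84) and between both mutant arrays with r = 0.87 (rho = 0.86). Over all 37072 genes r was 0.97 for each pair.

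Brighter receptors had probes richer in G and C. Across members, the percentage of G and C in the probe and the log2 mean signal correlated with r = 0.53 (rho = 0.52), and across all genes with r = 0.26 (rho = 0.27). Probes are not independent replicates, and both sets were read on the same 3 arrays. The median share was 43.3% in members and in all genes. Of the 31 members with under 36% G and C, 2 (6.45%) were well above background on all 3 arrays, with a median mean signal of 1.98 units. Of the 16 members with at least 51%, 14 (87.5%) were, with a median of 25.2 units. Over all genes the corresponding shares were 51.5% and 93.4%. In the first set of probes shown above, Olfr571, Olfr1347 and Olfr553 hold 46.7%, 53.3% and 55% G and C, and Olfr308, Olfr683 and Olfr490 hold 35%, 36.7% and 38.3%. Whether base composition sets these signals was not tested.

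With gaps of at most 1 Mb, the members formed 7 clusters. The largest, chr7:109625402-112517423 on mm9, held 123 genes with a median mean signal of 6.26 units, with 38.2% detected on all 3 arrays. The next held 65 genes (5.21 units, 36.9%). Detection was highest in the cluster of 8 genes at chr7:6393242-6523390, which runs from Olfr1344 to Olfr1350 and holds Olfr1347, with 12.6 units and 75.0%. Its probes also had the highest median share of G and C, 52.5%. Detection was lowest in the 15 genes at chr7:93417367-93836967, with 3.05 units, 20% and a median of 38.3% G and C. The 20 genes of the last cluster, from Olfr522 to Olfr541, gave 10.6 units, 60% and 45%. The clusters at chr7:92005604-92064908 and chr7:106883655-106915753, of 2 genes each, both gave 50%, with medians of 39.2% and 51.7% G and C. The clusters of highest and lowest detection thus differed in probe composition too, whose part in the result was not tested.

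**Figure D5:**
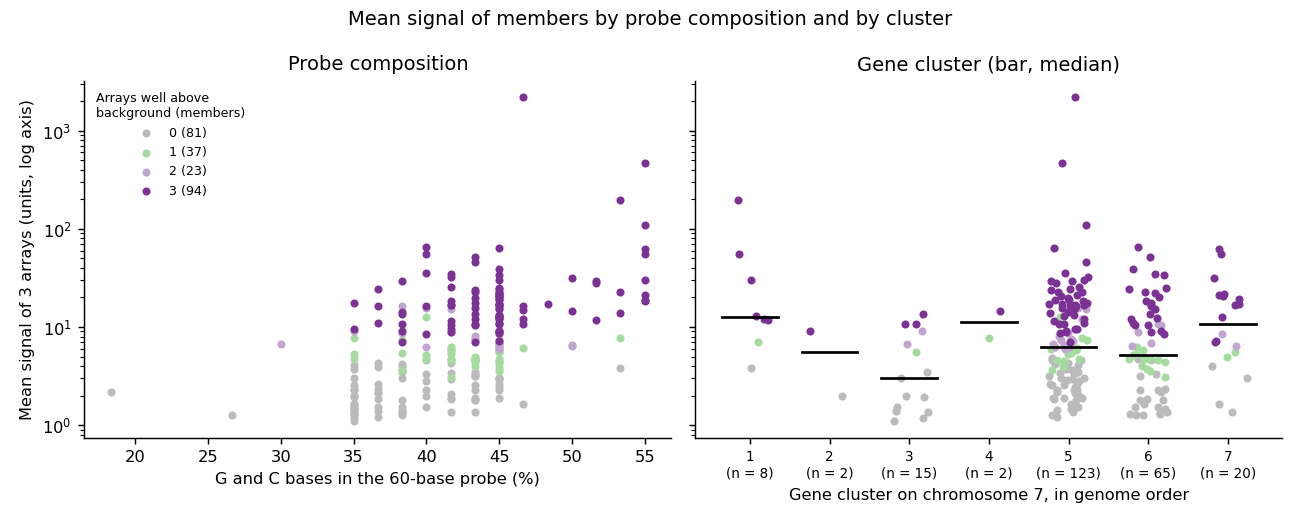
Mean signal over the 3 arrays (y axis, log scale) of the 235 members against the percentage of G and C in the probe (left) and by gene cluster in genome order (right, with medians as bars), colored by the number of arrays on which the gene was well above background. Members with under 36% G and C have a median of 1.98 units and those with at least 51% one of 25.2 units.

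The largest cluster surrounds the beta-globin genes, whose probes, from Hbb-bt to Hbb-y, lie within chr7:110961105-111000507. Hbb-bt, an adult beta-globin, read 137, 331 and 459.9 units on the WT, AtmsKO and Atmp38dKO arrays. The beta-globin genes were not alike in this. Log2 differences from WT on the AtmsKO and Atmp38dKO arrays were 1.35 and 1.53 for Hbb-bt and 1.24 and 1.56 for Hbb-b2. They were 0.58 and 0.49 for Hbb-b1, 0.45 and 0.19 for Hbb-bh1, and 0.02 and 0.25 for Hbb-bh2. Hbb-y stood at 0.14 and -0.29. A second Hbb-bh1 probe read 10.3, 5.26 and 11.49 units and was undetected on the AtmsKO array. The receptors nearest to the globin probes, Olfr67 at 24.8 kb on the Hbb-bt side and Olfr66 at 29.3 kb on the Hbb-y side, were not well above background on any array and read between 1.26 and 3.30 units. Of the 13 receptors within 100 kb of the globin probes, 9 (69.2%) were detected on at least 1 array, beside 65.5% of the family and 83.0% of all genes, with 7 on WT, 6 on AtmsKO and 7 on Atmp38dKO. Among them were Olfr65, 55.04 kb away and highest on the WT array, and Olfr69, 44.6 kb away and highest on the Atmp38dKO array. By its brighter probe, Olfr630 (58.05 kb away) read low on the WT array only.

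Where a receptor had 2 probes, their signals could differ. Of the 7 such genes, Olfr65 read 64.6, 19.8 and 21.3 units by its brighter probe and 8.64, 7.20 and 7.69 units by the other. The log2 difference of AtmsKO minus WT was -1.63 by the first probe and -0.19 by the second, which AtmsKO left undetected. Olfr631 read 41.7, 22.7 and 24.4 units by one probe and 7.53, 1.44 and 2.57 units by the other. Olfr630 read 4.13, 20.1 and 24.3 units by one and 4.97, 5.07 and 10.2 units by the other, which only the array labelled Atmp38dKO detected. Olfr681 was alike by both, at 10.03, 7.88 and 10.8 units and at 10.2, 9.25 and 8.81 units. The second probes of Olfr65, Olfr630 and Olfr631 thus gave smaller differences from WT, or smaller bounds, than the brighter ones. For Olfr630 and Olfr631, some of these low values were raised to the lowest detected level, which limits the difference. The second probe of Olfr681 gave the larger log2 difference for Atmp38dKO minus WT (-0.42 beside -0.11). For AtmsKO minus WT it gave the smaller one (-0.06 beside -0.27).

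Near-identical receptors limit what a probe can be tied to. Of the 235 probes, 25 shared a run of at least 20 bases with a probe of another gene, in 24 cases another olfactory receptor, and 8 shared at least 30. These included Olfr46 and Olfr53 (36 bases), which read 23.9, 14.2 and 23.7 units and 14.6, 16.4 and 20.4 units, and Olfr476 and Olfr477 (30 bases). Values of these genes may hold signal of the partner. Only probes on the array were compared, so similarity to other transcripts is not covered.

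Genes that olfactory neurons need to signal or to choose a receptor were mixed. Of 15 genes of the signaling list, 11 (73.3%) were well above background on each array, near the share of all genes. Gnb1, a G protein subunit used in most tissues, read 775, 923 and 1143 units. Omp, the olfactory marker protein, read 54.2, 40.1 and 64.1 units, and Adcy3, the cyclase of the odor response, 32.4, 18.8 and 23.4 units. Cnga2, a subunit of the odor-gated channel, read 18.1, 9.80 and 18.8 units, and Gnal, the olfactory G protein subunit, 18.1, 9.48 and 17.5 units. Cngb1, another subunit of that channel, read 127.9, 103 and 219.5 units. Cnga4, Ano2, Gng13 and Rtp1, which serve the channel, the chloride current, the G protein and receptor transport, were not well above background on any array. In this list no gene was at least 2-fold higher in any comparison. Slc24a4, an ion exchanger at 56.1, 13.7 and 29.8 units, was the 1 gene at least 2-fold below WT, with log2 differences of -1.96 for AtmsKO and -1.13 for the array labelled Atmp38dKO.

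Of the 15 genes tied to receptor choice and silencing, 12, 12 and 13 (80%, 80% and 86.7%) were well above background on the WT, AtmsKO and Atmp38dKO arrays, and none differed 2-fold in any comparison. The list holds many genes that other cell types use too. Ldb1, a cofactor that links enhancers, read 1565, 1324 and 1701 units, Lbr, a nuclear envelope protein, 1307, 1598 and 1775 units, and Ehmt2, a histone H3 methyltransferase, 923, 1072 and 1165 units. Setdb1 and Ehmt1, of the same kind of enzyme, read 40.2, 27.9 and 42.3 units and 56.6, 44.1 and 60.1 units. Lhx2, a homeodomain factor of olfactory neurons, read 13.1, 9.04 and 10.1 units, and Emx2 was not well above background on any array.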

How the data were processed

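LT-HSC RNA of 3 genotypes was read on 1 Cy3 Agilent array each, with RNA work, arrays and normalization done by a contractor. The deposited scanner files hold the authors' intensity values per spot, made with Agilent Feature Extraction 11.5.1.1 (per the submitters' processing notes), background-subtracted and detrended within the array, with mm9 coordinates. The deposited flags for well above background, saturation and outliers are scores of 0 or 1. The authors also deposited log2 values scaled per array, used as an alternative.

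Control and outlier spots were left out, spots of a probe averaged, and log2 of the signal taken minus the array's 75th percentile. A probe was well above background if over 50% of its spots were. Lower values were raised to the lowest such signal. Genes are named as in the files, and 231 of 235 symbols matched RefSeq (GRCm38.p6) by accession. A gene entered a comparison if one or both arrays detected it, and was called at 2- or 8-fold if the brighter array did. Scaling removes changes in total RNA, and precision is limited by the number of arrays.

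Named are the 8 brightest members and the 4 largest rises and falls per comparison measured on both arrays. Also named are the 2 largest differences each way among members detected on the brighter array only, and members past 8-fold. Members nearest beta-globin and those described outside the nose are named too. Other members named were chosen after their values were seen. Members and lists were chosen with earlier results of these data known. Calling was checked on simulated data only for large changes in bright probes with little noise. That check does not cover 2-fold differences or raised values at the low signals of most members. Tools were Python 3.11.15 with pandas 2.3.3, numpy 2.4.6 and scipy 1.17.1, and limma 3.58.1 in R 4.3.3 for normexp (offset 50).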

Additional observations from a re-analysis of the deposited data

How the results depend on the processing

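No paired analysis was possible because every genotype was hybridized once, and for the same reason no array could be left out. The shares, counts and medians over members were recomputed under other settings in 75 cases, of which 44 stayed within their margin and 31 moved. The cause was not tested unless named. Values of single receptors under normexp stand beside them in the report. The share of members above background rests on the flag. With the weaker flag for a positive and significant signal it was 84.3% (WT), 79.1% (AtmsKO) and 88.9% (Atmp38dKO), and with a limit at the 99th percentile of negative control spots 83.0%, 78.7% and 88.9%. With normexp, whose offset of 50 compresses low signals, the count at least 2-fold apart was 1 for AtmsKO against WT, 0 for Atmp38dKO against WT and 1 for Atmp38dKO against AtmsKO (beside 0.762%, 0.782% and 0.713% of all genes). At 8-fold it was 0 for AtmsKO against WT and 0 for Atmp38dKO against AtmsKO (beside 0.00693% and 0% of all genes). The medians were -0.079 for Atmp38dKO against WT and -0.13 for Atmp38dKO against AtmsKO. With no floor and no filter, 49, 48 and 46 members were at least 2-fold apart in the 3 comparisons, in the order above. That was 20.9%, 20.4% and 19.6%, beside 13.99%, 14.65% and 14% of all genes. At least 8-fold apart in AtmsKO and Atmp38dKO against WT were 4 and 2 members (1.70% and 0.851%, beside 1.14% and 0.944% of all genes). The median of AtmsKO against WT was 0.067. On the deposited log2 values the counts at 2-fold were 23, 26 and 25 (18.1%, 17.4% and 16.8%, beside 11.4%, 11.97% and 11.8% of all genes). Those at 8-fold against WT were 4 and 2 (3.15% and 1.34%, beside 1.465% and 1.149% of all genes). The medians of Atmp38dKO against WT and against AtmsKO were 0.15 and 0.09. Among members well above background on both arrays, which are fewer, 7, 9 and 5 passed 2-fold (shares given above). In Atmp38dKO against AtmsKO, 1 of them passed 8-fold (1.01%, beside 0.189% of all genes so measured). Quantile normalization gave a median of -0.089 for Atmp38dKO against AtmsKO. Most members lie under 16 units, where signal over background limits every fold.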
